A study of Bos taurus with 8 samples.

Results

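The HGF and FGF signalling axis of bovine satellite cells (SCs, the stem cells of muscle fibres) was followed through 9 genes of the 21880 in the deposited gene table, each found by its symbol as 1 row. They are the ligands HGF, FGF2, FGF7 and FGF10, the receptors MET, FGFR1 and FGFR4, and the feedback inhibitors SPRY1 and SPRY2. Unique molecular identifiers (UMIs, each standing for 1 captured transcript) were summed over the cells of a deposited cell type in each donor animal and timepoint. A level is given in CPM, the UMIs of a gene per 1000000 UMIs of such a sum. Levels of different genes are not compared with each other.

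HGF is stored in the muscle matrix, is activated by proteases after injury and signals through the tyrosine kinase MET, which is known for bringing quiescent SCs into the cell cycle. FGF2 binds FGFR1 and FGFR4 with heparan sulphate as co-receptor and keeps myoblasts dividing, while FGF7 and FGF10 are known as mesenchymal factors that signal mainly through an epithelial form of FGFR2. Both receptor families feed the RAS-ERK relay, and SPRY1 and SPRY2 (Sprouty proteins) dampen it. Sprouty1 is known to mark quiescent SCs in muscle and to be needed for their return to quiescence.

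Cells were isolated from the semitendinosus muscle of 10 Belgian Blue cattle and measured by droplet single-cell RNA sequencing, with the animals pooled into 1 library per timepoint and told apart by genotype. Timepoint 1 was muscle directly after digestion with collagenase, Timepoint 2 was passage 0 (P0), 72 h after plating on fibronectin in a growth medium free of serum (SFGM), and Timepoints 3, 4 and 5 were passages 2, 5 and 8 (P2, P5, P8). Donor 3 was measured in muscle alone. By the study's text donors 6, 8 and 10 were male and the others female. Donors 2, 4, 5, 7 and 10 were calves and the others adult. From P2 on, donors 5, 6 and 10 were grown as SCs sorted by FACS on laminin-521, donors 4, 7 and 8 as sorted fibro-adipogenic progenitors (FAPs, the stromal progenitors of muscle) on collagen I, and donors 1, 2 and 9 unsorted on fibronectin. All cultures received SFGM, which by the study's text contained HGF, so this ligand also reached the cells from the medium.

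The 36129 cells of the deposited cell table included 647, 2282, 3979, 3586 and 156 SCs from muscle to P8, and 1231, 5756, 4987, 6819 and 2616 FAPs. The median UMI count per cell ranged from 4184 in the muscle library to 27239.5 in the P2 library. Each timepoint is 1 library, so time and library cannot be told apart, and p-values below measure the spread between donors. The sample labels name runs 1 and 2 for Timepoints 2, 3 and 4 and run 1 alone for Timepoints 1 and 5. Runs were not separated here. Of 36000 distinct barcodes of kept cells, 129 occurred in 2 or more libraries. The list of 8 SC markers summed to between 1440 and 3330 CPM in the SCs of muscle, to between 151 and 346 at P0 and to between 289 and 1220 at P2. CHRDL2, one of them, had 1017 UMIs in muscle SCs, 2 at P0 and 0 at P2. The list of 6 FAP markers in the same SC sums went from between 95.6 and 1010 in muscle to between 1130 and 2150 at P0, where the SC list was lower than in muscle, and to between 2200 and 8460 at P2, where both lists were higher than at P0, against between 24100 and 29500, 3750 and 5720, and 5100 and 28300 in the FAPs. By these markers the SC label was clearest in muscle.

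In muscle, FGFR4 was highest in SCs, which held 340 of its UMIs against 2 in FAPs and 37 in vascular endothelial cells (VECs, mean 7.46, highest donor 37.9), whose range overlapped with that of SCs. MET was found in SCs and in both kinds of endothelial cell. SPRY2 was higher in FAPs than in SCs of every donor, and FGF7 in 9 of 10, the exception being donor 5 (38.8 in FAPs and 39.7 in SCs). The deposited cell types come from clusters of these same expression values, so differences between types are given as a description, with no test.

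**Figure D1:**
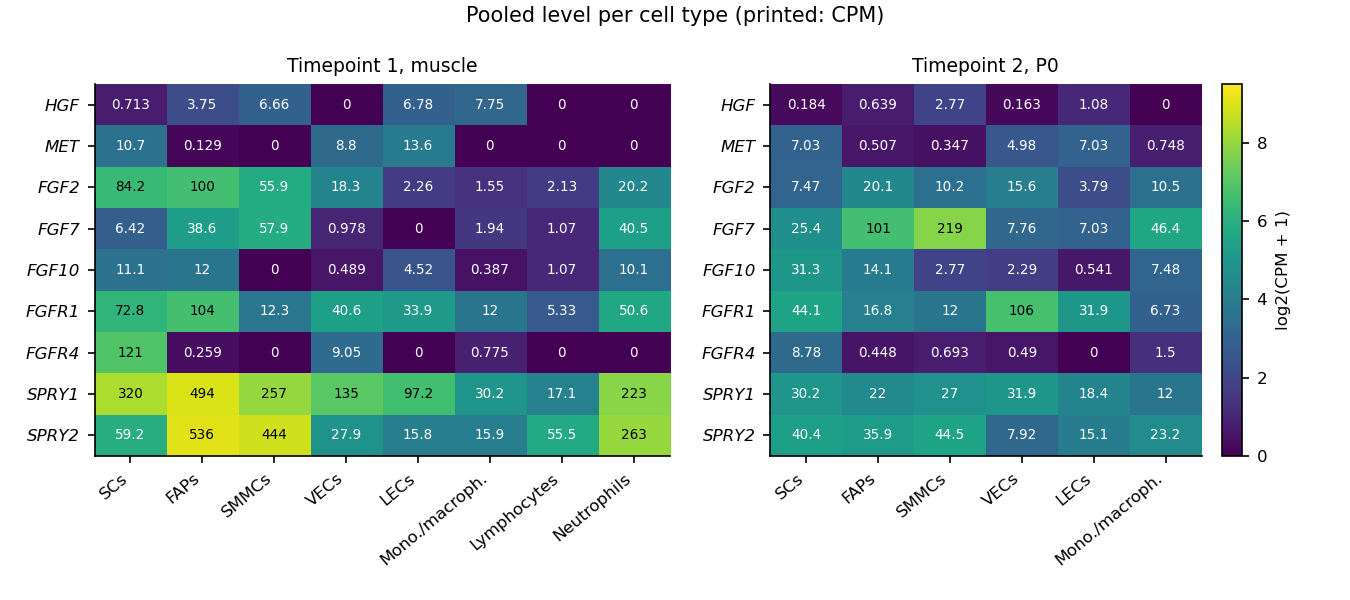
Pooled levels of the 9 genes in each cell type in muscle (left) and at P0 (right), with the level in CPM printed in each cell and coloured as log2(CPM + 1). In muscle FGFR4 is highest in SCs at 121 and SPRY2 in FAPs at 536, while MET is at 10.7 in SCs and 13.6 in LECs (lymphatic endothelial cells) of muscle and at 7.03 in both at P0.

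HGF was rare in every cell type. Muscle SCs held 2 HGF UMIs, 1 in each of 2 donors, and muscle FAPs held 29, a pooled level 5.26-fold higher in FAPs (95% counting interval 1.33 to 45.5). Of the 29 UMIs, 16 came from donor 5 and 9 from donor 10, and 6 of 10 FAP sums held none. Without donor 5 the ratio was 2.95 (0.668 to 26.9), and without donor 3 or donor 4, whose SCs held 1 UMI each, it was 10.5 (1.75 to 430.0) and 10.4 (1.72 to 424.0). By donor, HGF was lower in SCs of 4 and higher in SCs of 2. In the muscle library 20 HGF UMIs fell in monocytes and macrophages, 13 in smooth muscle and mesenchymal cells (SMMCs) and 3 in LECs. Their pooled levels of 7.75, 6.66 and 6.78 were above the 3.75 of FAPs. SCs stayed at low HGF in culture, with 8 UMIs at P0, 6 at P2, 11 at P5 and 0 at P8, while FAPs held 87, 110, 262 and 81. At P2 the pooled HGF level was 12.4-fold higher in FAPs than in SCs (5.52 to 34.6), but SCs of that pool came mainly from SC cultures and FAPs from the other donors. Within SC cultures the ratio was 50.3 on 2 FAP and 3 SC UMIs (4.2 to 439.0), within unsorted cultures 7.3 on 58 and 1 (1.26 to 293.0) and within FAP cultures 1.67 on 50 and 2 (0.438 to 14.1). At P8 the count of 0 in SCs placed FAPs at least 1.41-fold higher, taking 3 UMIs over all SCs as the floor. These intervals and floors cover counting error only.

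UMIs of FGF2, FGF7 and FGF10 were counted in SCs as well as in FAPs. In droplet data free RNA also gives such UMIs. A list of 6 myofibre genes summed to between 300 and 892 CPM in muscle SCs and between 699 and 1160 in muscle FAPs, and the part of free RNA in the ligand values was not tested. VECs of the same library had pooled levels of 18.3 for FGF2, 0.978 for FGF7 and 0.489 for FGF10. The median FGF2 level in muscle was 95.6 in SCs (lowest 48.8, highest 143) and 102 in FAPs (68.9 to 135), and the ranges overlapped. FGF7 in muscle had a median of 1.22 in SCs, with 5 of 10 donors at 0 and a highest value of 39.7, and a median of 28.4 in FAPs (6.37 to 78.8). SMMCs held the highest FGF7 level at P0, with a median of 224 (119 to 257) against 103 in FAPs (52.7 to 140) and 17.4 in SCs (8.36 to 82.7), and the SMMC and FAP ranges overlapped. FGF10 in muscle had medians of 8.89 in SCs (0 to 61.4) and 15.1 in FAPs (3.03 to 23.2), which overlapped.

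MET transcripts in muscle SCs had a median of 11.8 (0 to 29.4), and 9 of 10 FAP sums held none. The pooled MET level was 82.6-fold higher in SCs, but it rested on 30 UMIs against 1 (13.7 to 3370). VECs (mean 8.54 ± 4.85 SD, n = 10 donors, 36 UMIs) overlapped with SCs (12.3 ± 9.76, n = 10) in MET level. So did LECs (12.0 ± 8.11), but on 3 UMIs over 4 donors. At P0 the SC to FAP ratio of MET was 13.9-fold (10.7 to 18.3), and at P2 it was 42.7-fold (35.0 to 52.7). The P2 pool mixes cultures, and within culture types the ratio was 17.2 for SC cultures (4.77 to 142.0), 33.6 for unsorted cultures (24.7 to 46.4) and 24.1 for FAP cultures (16.5 to 35.6).

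FGFR1 overlapped between the types in muscle, with medians of 57.2 in SCs (40.9 to 104) and 110 in FAPs (88.6 to 128). VECs carried the highest FGFR1 level at P0, with a median of 105 (94.1 to 152), above every SC sum of that timepoint (21.6 to 56.6). FGFR4 in muscle SCs had a median of 89.8 (10.2 to 227), while 8 of 10 FAP sums were at 0 and the highest was 1.42. The pooled FGFR4 ratio of SCs to FAPs was 468-fold in muscle (129 to 3880), 19.6-fold at P0 (14.9 to 26.1) and 55.5-fold at P2 (48.7 to 63.5). Within culture types at P2 it was 15.3 for SC cultures (7.4 to 38.0), 29.3 for unsorted cultures (23.4 to 36.8) and 26.7 for FAP cultures (21.3 to 33.6), each below the ratio of the mixed pool.

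SPRY1 in muscle had a median of 316 in SCs (195 to 645) and 547 in FAPs (341 to 791). SPRY2 in muscle had a median of 59.8 in SCs (32.9 to 102), 579 in FAPs (266 to 882) and 512 in SMMCs (192 to 880). The SC values of SPRY2 lay below those of both other types without overlap, whereas those of SPRY1 overlapped with FAPs.

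**Figure D2:**
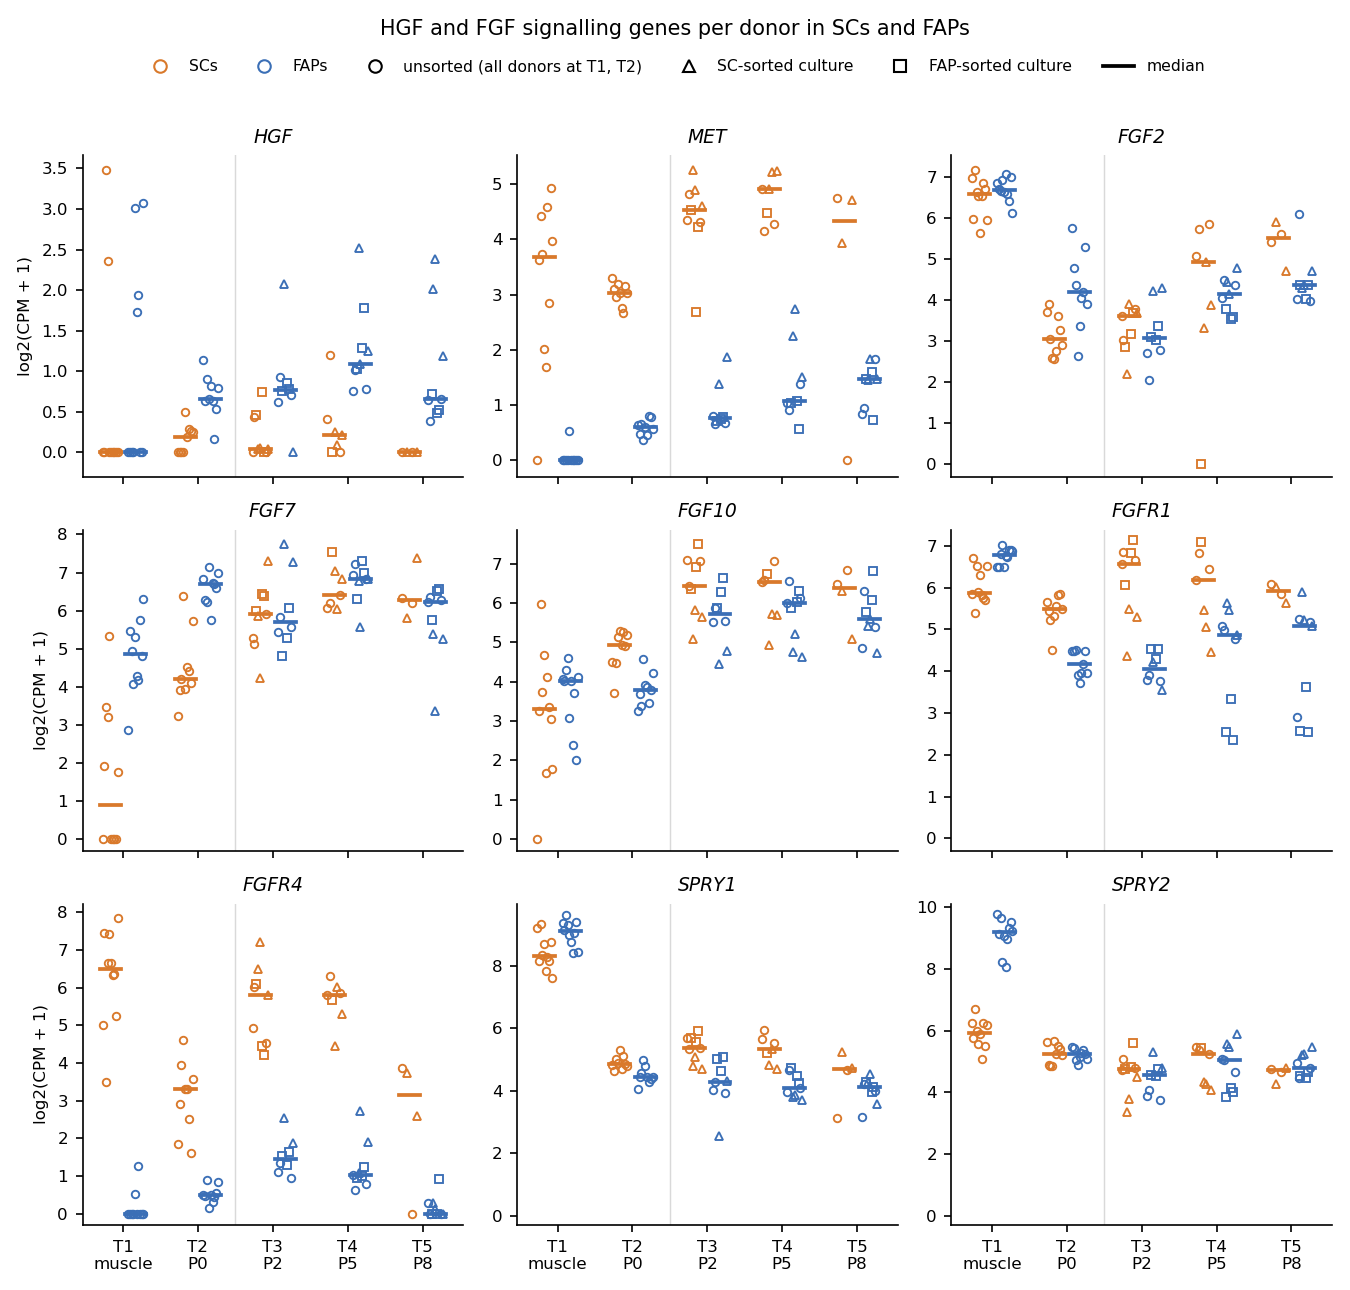
Level of each gene in every donor's SCs (orange) and FAPs (blue) from muscle to P8, as log2(CPM + 1), with symbols for the culture type and a bar for the median. SPRY1, FGF2 and FGFR4 of SCs drop between muscle and P0. MET and FGFR4 of SCs are higher at P2 than at P0, while FAPs stay low in both.

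The difference between SCs and FAPs of the same donor was then taken on the scale of log2(CPM + 1), with totals scaled by TMM (trimmed mean of M values). For MET the mean difference was 3.1 ± 1.61 (SD) in muscle (n = 10 donors), 2.43 ± 0.28 at P0 (n = 9), 3.39 ± 0.71 at P2 (n = 8), 3.12 ± 0.49 at P5 (n = 7) and 1.84 ± 2.58 at P8 (n = 4). The P8 mean was 3.07 ± 0.89 without donor 9, whose sum of 12 SCs held no MET UMI, and 1.16 ± 2.68 without donor 1. MET was higher in SCs of 9 of 10, 9 of 9, 8 of 8, 7 of 7 and 3 of 4 donors. For FGFR4 the difference was 6.02 ± 1.32, 2.56 ± 1.00, 3.76 ± 0.70, 4.26 ± 0.89 and 2.42 ± 1.68, higher in SCs of every donor up to P5 and of 3 of 4 at P8.

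FGFR1 lay on the FAP side in muscle and on the SC side at P0 and P2. Its SC minus FAP difference was -0.76 ± 0.43 in muscle, with 9 of 10 donors lower in SCs, and 1.24 ± 0.41 at P0, with 9 of 9 donors higher in SCs. It was 2.13 ± 0.89 at P2 (8 of 8 higher) and 1.06 ± 1.65 at P5 (4 of 7 higher). At P5 the SC cultures of donors 5, 6 and 10 were at -0.17, -0.28 and -0.35 and the unsorted cultures of donors 1, 2 and 9 at 0.87, 1.61 and 1.43. The value of 4.33 in donor 4 rested on 10 SCs, and with at least 30 cells per sum, which leaves donor 4 out, the mean was 0.51. SPRY2 went from -3.25 ± 0.62 in muscle, lower in SCs of all 10 donors, to 0.04 ± 0.29 at P0. SPRY1 went from -0.68 ± 0.37 in muscle to 0.42 ± 0.30 at P0 and 1.12 ± 0.61 at P2, where it was higher in SCs of 8 of 8 donors.

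Among the ligands, FGF7 was lower in SCs by -3.29 ± 1.82 in muscle and -2.08 ± 0.77 at P0, in every donor at both timepoints on this scale, and the difference was 0.00 ± 0.98 at P2. FGF10 was higher in SCs at P0 (1.03 ± 0.50, 9 of 9 donors) and P2 (0.86 ± 0.43, 8 of 8 donors). FGF2 was lower in SCs of 9 of 9 donors at P0 (-1.11 ± 0.62) and of 3 of 8 at P2 (0.04 ± 0.95).

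**Figure D3:**
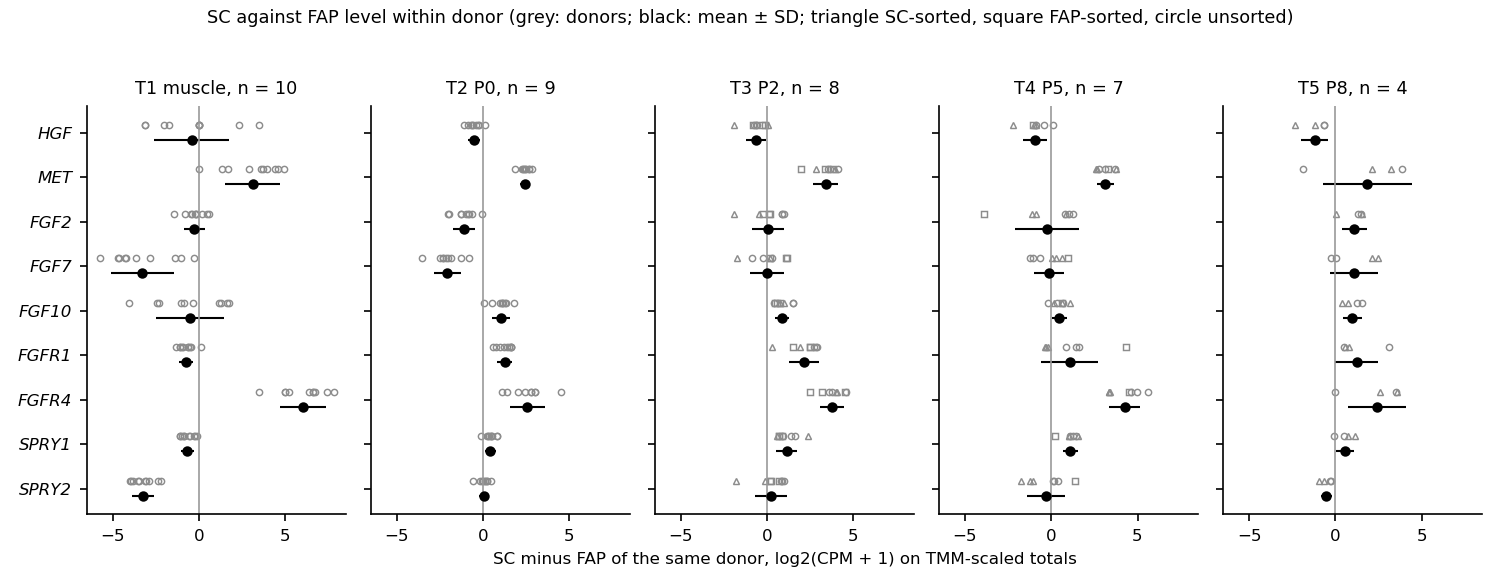
SC minus FAP difference within each donor on the log2(CPM + 1) scale at each timepoint (grey, donors by culture type; black, mean ± SD). The means of MET and FGFR4 lie above 0 at every timepoint, and that of FGFR1 moves from -0.76 in muscle to 1.24 at P0.

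The first tested comparison asked how the axis changed as SCs passed from muscle into culture (P0, 9 donors, against muscle, 10 donors). SPRY1 was called lower, and FGF2 and FGFR4 were lower at P0 in every paired donor. FGF7 and FGF10, too sparse in muscle SCs to pass the filter on low counts, were higher at P0 in every paired donor and were called higher when it was not applied. Genes were called at an adjusted p under 0.05 (edgeR quasi-likelihood F test, Benjamini-Hochberg over all genes tested) and a log2 fold change beyond 1. Of all 5221 genes tested 34.3% were called, 18.5% as lower, so a call was common in this comparison. Of the 9 members 5 passed the filter, and HGF, MET, FGF7 and FGF10 did not. FGF2 and FGFR4 reached at most 14.1 and 23.6 at P0 and passed the filter through muscle, where they were high. That fixed the direction of their calls as lower, which are not counted here.

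FGF2, the FGF ligand most used to expand myoblasts, went from a median of 95.6 in muscle SCs (48.8 to 143) to 7.32 at P0 (4.98 to 14.1). It was lower in 9 of 9 paired donors with no overlap of the groups, a fall of 3.52 on the log2 scale (SE 0.23). Its call is set aside, as given above. Non-overlap was also common, at 34.5% of genes tested.

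FGFR4, an FGF receptor of the myogenic lineage, had a median of 89.8 in muscle (10.2 to 227) and 8.92 at P0 (2.04 to 23.6). Every paired donor was lower at P0 although the groups overlapped, and the log2 fold change of FGFR4 was -3.72 (SE 0.43), its call also set aside. The SC marker list of the same sums went from a median of 2100 CPM to 179, and its part in the FGFR4 value was not tested. SPRY1, the inhibitor linked to quiescence, went from a median of 316 (195 to 645) to 27.9 (23.9 to 38.1). The SPRY1 groups did not overlap, and the log2 fold change was -3.62 (SE 0.19, adjusted p = 1.68e-13).

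FGFR1 and SPRY2 moved less and were not called. FGFR1 went from a median of 57.2 (40.9 to 104) to 43.6 (21.6 to 56.6), with a log2 fold change of -0.76 (SE 0.18, adjusted p = 0.000624). SPRY2 went from 59.8 (32.9 to 102) to 36.6 (27.9 to 49.5), with -0.68 (SE 0.17, adjusted p = 0.00124). The muscle and P0 values of both genes overlapped.

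The members left out by the filter were sparse in muscle SCs. MET had a median of 11.8 in muscle (30 UMIs) and 7.16 at P0 (5.39 to 8.84, 305 UMIs), and it was higher at P0 in 3 of 9 donors. FGF7 had 18 UMIs in muscle and 1104 at P0, and FGF10 had 31 and 1360, and each was higher at P0 in 9 of 9 donors. Without the filter the log2 fold change of FGF7 was 2.40 (adjusted p = 0.0312), that of FGF10 1.71 (adjusted p = 0.000277), that of MET -0.30 (adjusted p = 0.491) and that of HGF -1.49 (adjusted p = 0.3). With donor as a block FGF10 passed the filter mostly through its P0 sums, where it was high, so its call as higher (1.68) is not counted here. The FAP marker list rose in the same SC sums, as given above, and its part in the FGF7 and FGF10 values was not tested. The median FGF10 level at P0 was 12.9 in FAPs (8.6 to 22.9) and 29.5 in SCs.

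In FAPs of the same libraries FGF2, FGFR1 and both Sprouty genes fell and FGF7 rose. Of 9208 genes tested 43.4% were called in FAPs, and 5 of 6 tested members were among them. FGF2 fell by 2.13 on the log2 scale (SE 0.35, adjusted p = 1.72e-05), from a median of 102 (68.9 to 135) to 17.5 (5.28 to 53.2). FGFR1 fell by 2.51 (SE 0.12, adjusted p = 1.81e-15), from 110 (88.6 to 128) to 17.1 (12.1 to 21.6).

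Both Sprouty genes fell in FAPs without overlap of the groups. The groups did not overlap, in either direction, for 42.6% of genes tested. SPRY1 had a log2 fold change of -4.51 (SE 0.16, adjusted p = 5.51e-17), and SPRY2 of -3.86 (SE 0.18, adjusted p = 1.55e-14). FGF7 was the member that rose, by 1.53 (SE 0.28, adjusted p = 5.45e-05), from 28.4 (6.37 to 78.8) to 103 (52.7 to 140), in 9 of 9 donors. FGF10 was at 15.1 and 12.9 (log2 fold change 0.22, SE 0.28, adjusted p = 0.481). The log2 TMM factor of P0 minus that of muscle was -0.12 in FAPs, so TMM scaling alone moved their fold changes up by that amount.

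The change in SCs minus the change in FAPs was tested in 1 fit over both cell types, which shares its samples with the comparisons above. By this interaction term 6 of 7 tested members were called, FGFR4 among them set aside below, against 20.0% of 8751 genes. The term compares gaps between cell types that come from clusters of these same expression values, and its p-values do not allow for that. The FAP marker list in the SC sums went from a median of 175 CPM in muscle to 1570 at P0, and its part in these terms was not tested. SPRY2 had the largest positive term among the members (3.39, SE 0.24, adjusted p = 2.09e-14), and FGFR1 (1.96, SE 0.22, adjusted p = 7.66e-10) and SPRY1 (1.11, SE 0.22, adjusted p = 8.68e-05) were positive too, and all 3 dropped less in SCs than in FAPs. FGF10 had a term of 1.35 (SE 0.51, adjusted p = 0.0309) and FGF2 of -1.18 (SE 0.45, adjusted p = 0.0365). With donor as a block the FGF2 term was -0.90 and lost its call (adjusted p = 0.0668), as it did with no filter, with at least 30 cells and on thinning (adjusted p between 0.0568 and 0.0622). FGF10 lost its call with no filter (adjusted p = 0.0615). FGFR4 had a term of -4.28 (SE 1.33), whose size depends on the prior count because muscle FAPs held 2 UMIs. FGFR4 passed the filter mainly through muscle SCs, where it was high. That fixed the direction of its term, so its call is not counted here. FGF7 was not called (0.73, SE 0.99, adjusted p = 0.591).

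**Figure D4:**
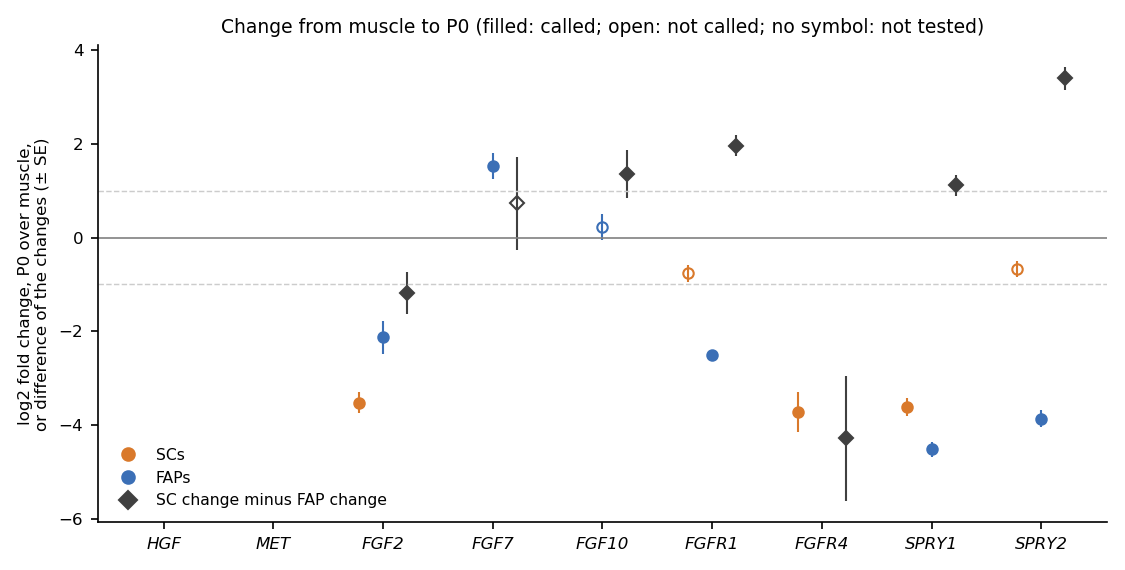
Log2 fold change from muscle to P0 in SCs and in FAPs and the difference of the changes, each ± SE, for the 9 genes (filled symbols called, open symbols not called, no symbol where a gene did not pass the filter). The SC and FAP symbols lie closer for SPRY1 (-3.62 and -4.51) than for SPRY2 (-0.68 and -3.86). The filled SC symbols of FGF2 and FGFR4, and the filled symbol of the FGFR4 difference, are calls set aside in the text.

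A list of 77 further genes of the HGF and FGF pathways, of which 74 had a row, was followed beside the members. Of its 3 other FGF receptors, FGFR2 among them, 0 passed the filter in any comparison of SC sums with SC sums. In SCs at P0 5 of 27 tested list genes rose and 6 fell, where 34.3% of all genes were called, and the median log2 fold change was 0.09 against -0.01 over all genes. FOS fell by 6.42 (adjusted p = 5.84e-15) and EGR1 by 3.8 (adjusted p = 1.1e-16), both immediate-early transcription factors downstream of ERK. Muscle cells were measured directly after digestion with collagenase, and the study proposes that dissociation perhaps activated most SCs. The part of digestion in the falls from muscle to P0, those of the Sprouty genes included, was not tested. GAB1, a docking protein of MET, fell by 2.53 (adjusted p = 6e-11), and CD44, a membrane protein whose variant forms present HGF to MET, rose by 2.53 (adjusted p = 1.54e-12). In FAPs 8 of 41 rose and 17 fell, where 43.4% of all genes were called, with the largest values for FOSL1 (7.3, which depends on the prior count because muscle FAPs were near 0), FGF18 (-6.68), FOS (-6.23) and FGF1 (-4.70). FGF18 and FGF1 were the 2 other FGF ligands tested there, and both are counted among the 17. Whether they passed the filter through muscle FAPs alone, which would fix the direction, was not tested. The interaction term was called higher for 7 of 39 and lower for 4, where 20.0% of all genes were called. Its largest values were those of FOSL1 (-5.62), FGF18 (3.33), CD44 (2.56) and SDC3 (2.5). The limit given for FGF18 holds for its term too.

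The second comparison followed SCs from P0 to P2 (9 donors in each). MET, FGFR4, FGF7 and FGF10 rose, 4 of 8 tested members, against 10.0% of 9793 genes called and 6.15% called higher. The P2 sums hold all 3 culture types, and the P0 sums also served as the culture group of the comparison above. Marker lists moved in the same SC sums, and their part in these values was not tested. The FAP list went from a median of 1570 CPM to 6580, and the list of 6 myofibre genes from 0.375 (0 to 1.01) to 121 (1.35 to 431). The SMMC list went from 84.5 (22.6 to 108) to 614 (265 to 1200), and the SC list itself from 179 (151 to 346) to 518 (289 to 1220).

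MET went from a median of 7.16 at P0 (5.39 to 8.84) to 22.3 at P2 (5.41 to 37.3), higher in 8 of 9 donors. The lowest P2 value, in donor 7 of the FAP cultures, lay within the P0 range. The log2 fold change was 1.74 (SE 0.21, adjusted p = 2.57e-06). FGFR4 went from 8.92 (2.04 to 23.6) to 54.4 (17.6 to 148), higher in 9 of 9 donors, with a log2 fold change of 2.76 (SE 0.46, adjusted p = 0.000107). The 3 highest FGFR4 values at P2, 148, 89.3 and 67.0, came from 2 SC cultures and 1 FAP culture.

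FGF10 went from 29.5 (12.0 to 37.8) to 86.1 (32.9 to 179), with a log2 fold change of 1.70 (SE 0.29, adjusted p = 0.000131). FGF7 went from 17.4 (8.36 to 82.7) to 59.1 (17.7 to 158), with 1.26 (SE 0.45, adjusted p = 0.0268). Each was higher in 8 of 9 donors. Within the 3 donors of the SC cultures alone the log2 fold change was 0.33 for FGF10 (adjusted p = 0.241) and 0.65 for FGF7 (adjusted p = 0.612), and neither was called. FGF7 was also lost with no filter on low counts (adjusted p = 0.0518).

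FGFR1, SPRY1 and SPRY2 did not reach the fold needed. FGFR1 had a log2 fold change of 0.88 (SE 0.31, adjusted p = 0.0265), with a median of 93.9 at P2 and a range of 19.6 to 141 that enclosed the P0 values. It was -0.07 in the donors of SC cultures, 1.10 in those of unsorted cultures (adjusted p = 0.000365) and 1.2 in those of FAP cultures (adjusted p = 0.0191), the last 2 of which were called. SPRY1 had 0.47 (SE 0.15, adjusted p = 0.0164) and SPRY2 -0.70 (SE 0.23, adjusted p = 0.019). FGF2 was at 7.32 and 11.2 (0.29, SE 0.26, adjusted p = 0.406). HGF, with 8 and 6 UMIs, was not tested.

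Between P2 (9 donors) and P5 (7 donors) 0.440% of 9780 genes were called, 0.276% as higher, and FGF2 was the 1 member among them. It went from a median of 11.2 (3.59 to 14.1) to 29.4 (0 to 56.8), higher in 6 of 7 paired donors. The 0 belonged to donor 4 of the FAP cultures, whose SC sum held 10 cells. The log2 fold change was 1.63 (SE 0.41, adjusted p = 0.0493), and it was lost with no filter on low counts (1.61, adjusted p = 0.0752) and within the donors of SC cultures (0.89, adjusted p = 0.391). On thinning all sums to the smallest total FGF2 did not pass the filter. Within unsorted cultures, where mean FGF2 was 10.4 at P2 and 47.1 at P5, the myofibre list of the same SC sums went from a median of 185 to 641, and its part in the FGF2 value was not tested. MET was at 22.3 and 29.1 (log2 fold change 0.31, adjusted p = 0.504) and FGFR4 at 54.4 and 55.2 (-0.18, adjusted p = 0.863). FGF7, FGF10, FGFR1, SPRY1 and SPRY2 had log2 fold changes between -0.30 and 0.58, none called. At P8 only 4 SC sums had at least 10 cells, so no test was made. There FGFR4 was at 12.2, 5.07, 13.5 and 0 in donors 6, 10, 1 and 9, and MET at 14.3, 25.4, 26.1 and 0. The sum of donor 9 held 12 cells and 124410 UMIs, so a count of 0 allowed a level of up to 24.1 for each gene.

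In FAPs the step from P0 (9 donors) to P2 (8 donors) called 3 of 9 tested members, FGFR4 among them set aside below, against 19.3% of 11384 genes. The SMMC marker list of the same FAP sums went from a median of 51.4 CPM (33.4 to 72.3) to 539 (243 to 1030), and its part in these values was not tested. FGF10 rose by 2.21 (SE 0.25, adjusted p = 6.91e-07), from a median of 12.9 (8.6 to 22.9) to 51.6 (20.8 to 97.7). FGFR4 was at 0.402 (0.116 to 0.872) and 1.73 (0.914 to 4.80), the latter below every SC sum of P2. It passed the filter through P2, where it was high, so its call as higher (1.93, SE 0.29) is not counted here. The pooled P0 level of FAPs was 0.448, beside 0.49 in VECs (6 UMIs), 0.693 in SMMCs (4 UMIs) and 0 in LECs. Between the same libraries the FGFR4 UMIs of SCs went from 381 to 8642 and those of all FAPs from 61 to 230, and the part of free RNA was not tested. FGF2 fell by 1.56 (SE 0.40, adjusted p = 0.00212), from 17.5 (5.28 to 53.2) to 7.40 (3.15 to 18.7). FGF7 was at 103 and 51.3 (-0.47, adjusted p = 0.204), and its highest P2 values, 213 and 155, came from the 19 and 12 FAPs of the SC cultures of donors 5 and 10. HGF (0.34), MET (0.54), FGFR1 (0.07), SPRY1 (0.10) and SPRY2 (-0.76) were not called. Within the donors of SC cultures alone no member was called, and FGF2 had the opposite sign (0.76, adjusted p = 0.557). On thinning to the smallest total none of the 3 passed the filter on low counts.

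On the pathway list 5 of 44 tested genes rose and 0 fell in SCs from P0 to P2, by the same test, where 10.0% of all genes were called. CCND1 (cyclin D1) rose by 4.13 (adjusted p = 3.61e-10), and the heparan sulphate editing enzyme SULF2 by 2.53 (adjusted p = 7.03e-06). SPINT2, an inhibitor of HGF-activating proteases, rose by 1.56 (adjusted p = 0.000109), and the heparan sulphate carrier SDC1 by 1.12 (adjusted p = 0.00306). None of the 17 tested adaptors and relay genes was called in that step. From P2 to P5, where 0.440% of all genes were called, 2 of 44 rose, DUSP6, a phosphatase of ERK, by 1.36 (adjusted p = 0.00373) and SULF2 by 1.18 (adjusted p = 0.0347). In FAPs from P0 to P2 6 of 48 rose and 5 fell, where 19.3% of all genes were called and 7.96% were called lower. The 5 were among the 7 tested feedback inhibitors, whose median log2 fold change was -1.28 against 0.03 over all genes. The largest values there were those of FOS (2.13), SULF1 (2.09), SPINT2 (2.05) and DUSP5 (-1.92).

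Sorting by FACS does not use the RNA, so sorted SC and FAP cultures could be compared by a test, over all cells of each culture (3 donors against 3). Coating and donor animals differed with the sort, and their effects cannot be told apart from that of cell type. In such whole-culture sums a smaller share of a cell type and less RNA per cell cannot be told apart either. SCs made up between 98.3% and 99.4% of the cells of SC cultures at P2, between 43.0% and 98.0% at P5 and between 3.35% and 17.3% at P8. In FAP cultures they were between 2.09% and 10.4% at P2, between 0.347% and 0.738% at P5 and between 0.946% and 1.95% at P8. At P2 MET and FGFR4 were called as higher in SC cultures, where 18.2% of 12199 genes were called. TMM scaling alone lowered the log2 fold changes by 0.17 at P2 and by 0.23 at P5, far less than the values of the called members.

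MET at P2 was at 36.6, 28.5 and 23.0 in the SC cultures of donors 5, 6 and 10, and at 2.66, 0.968 and 1.04 in the FAP cultures of donors 4, 7 and 8. The groups did not overlap, as for 55.1% of genes, and the log2 fold change was 4.05 (SE 0.41, adjusted p = 0.00138). FGFR4 was at 87.7, 147 and 53.8 against 7.93, 2.62 and 2.41, with 4.31 (SE 0.60, adjusted p = 0.00368). HGF was at 0.0926, 0.0422 and 0.0311 against 0.655, 0.807 and 0.711, on 5 and 52 UMIs, and the groups did not overlap. HGF passed the filter on low counts only through the FAP cultures, where it was high, so its call as lower in SC cultures is not counted here.

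FGF10 at P2 was at 32.7, 55.4 and 48.4 in SC cultures and 59.4, 79.1 and 99.2 in FAP cultures, with -0.98 (SE 0.26, adjusted p = 0.0321), just short of the fold needed. FGFR1 (0.26, adjusted p = 0.493), FGF2 (0.14, adjusted p = 0.826), FGF7 (0.60, adjusted p = 0.55), SPRY1 (-0.29, adjusted p = 0.18) and SPRY2 (-0.88, adjusted p = 0.0518) were not called. FGF7 of the SC cultures ran from 18 in donor 6 to 158 in donor 10, a range that enclosed that of the FAP cultures.

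At P5 MET, FGFR4 and FGFR1 were called as higher in SC cultures, against 19.5% of 12212 genes called and 10.4% called higher. FGFR1 was at 46.5, 32.6 and 21.7 against 5.42, 9.25 and 4.12, with a log2 fold change of 2.20 (SE 0.41, adjusted p = 0.00744). The FAPs of these cultures differed in the same direction, at 48.8, 42.9 and 28.0 in donors 5, 6 and 10 and 4.83, 9.12 and 4.13 in donors 4, 7 and 8, and no test was made of those sums. MET was at 13.8, 35.4 and 33.8 against 1.13, 1.23 and 0.52 (4.61, SE 0.50, adjusted p = 0.00163). FGFR4 was at 8.96, 62 and 35.7 against 1.16, 1.03 and 1.41 (4.65, SE 0.75, adjusted p = 0.00484). FGF10 (-0.89, adjusted p = 0.0293) was below the fold needed, and FGF2, FGF7, SPRY1 and SPRY2 lay between -0.53 and 0.58, none called.

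HGF at P5 was not called (-0.80, SE 1.12, adjusted p = 0.593), with 2.95, 0.0922 and 0.254 in SC cultures and 1.03, 1.44 and 2.41 in FAP cultures. The value of 2.95 came from donor 5, whose SC culture was down to 43.0% SCs. The FAPs of that culture held HGF at 4.75 and its SCs at 0.189, against 1.04, 1.44 and 2.42 in the FAPs of FAP cultures. Without donor 5 HGF was called at -3.47 (adjusted p = 0.00542), but it then passed the filter through the FAP cultures alone, which fixed the direction. The same culture was the lowest of the 3 in MET and FGFR4.

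At P8 1.42% of 9974 genes were called, 0.582% as higher, and FGFR1 was the 1 member among them. It was at 58.4, 37.4 and 35.5 in SC cultures and 4.88, 11.3 and 4.80 in FAP cultures, with a log2 fold change of 2.59 (SE 0.41, adjusted p = 0.0397). The call was lost on leaving out any 1 of donors 5, 6, 10, 7 and 8, with an adjusted p between 0.0717 and 0.122, while the log2 fold change stayed between 2.29 and 3.13. SPRY2 had 0.67 (SE 0.13, adjusted p = 0.0473), below the fold needed. FGF10 (-1.02, adjusted p = 0.19), FGF7 (-1.18, adjusted p = 0.357), FGF2 (0.19, adjusted p = 0.587) and SPRY1 (0.11, adjusted p = 0.81) were not called. MET had 1.92, 3.07 and 5.75 in SC cultures against 1.79, 2.01 and 0.655, and FGFR4 was at or below 0.874 in all 6, and neither passed the filter. HGF was at 2.98, 4.03 and 1.06 against 0.651, 0.402 and 0.437 and also did not pass it. Its groups did not overlap, as for 25.1% of genes tested.

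At P8 too FGFR1, and also HGF, differed in the same direction within the FAPs of these cultures, which were then most of the cells. FAPs of SC cultures held FGFR1 at 58.6, 36.3 and 33.0 in donors 5, 6 and 10, and those of FAP cultures at 4.89, 11.3 and 4.84. HGF in the same FAPs was at 3.03, 4.21 and 1.28 against 0.652, 0.405 and 0.440. FAPs of the unsorted cultures lay on both sides for FGFR1, at 6.48, 37.3 and 35.0. For HGF they were between 0.311 and 0.574, below all 3 FAP sums of the SC cultures. No test was made of these sums.

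**Figure D5:**
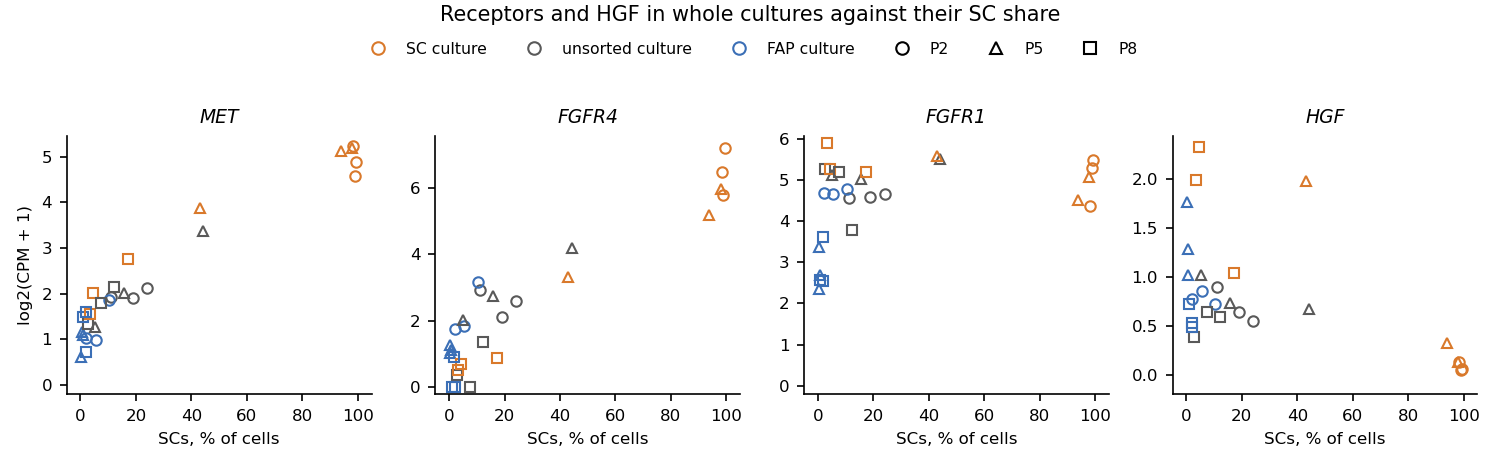
Level of the receptors and HGF in each whole culture at P2, P5 and P8 against the share of its cells that were SCs (percent), as log2(CPM + 1), coloured by culture type. MET and FGFR4 are high in cultures with a high SC share (36.6 and 87.7 at 98.3% in donor 5 at P2) and low at P8, whereas FGFR1 of SC cultures stays between 35.5 and 58.4 at P8.

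On the pathway list the culture contrast called 3 of 51 tested genes higher and 10 lower at P2, 10 of 52 higher and 4 lower at P5, and 0 of 42 either way at P8, where 18.2%, 19.5% and 1.42% of all genes were called. At P2 the largest were SULF1 (-4.82, adjusted p = 0.000327), the ligand FGF18 (3.70, adjusted p = 0.0038), the MET relative MST1R (-2.79, adjusted p = 0.0074) and HGFAC, the protease that activates HGF (2.67, adjusted p = 0.0073). At P5 MST1R (-2.87, adjusted p = 0.00132) and HGFAC (2.86, adjusted p = 0.00197) were again among the 4 largest. FGF22 had 3.49 there (adjusted p = 0.00125), and FGF5 was called against FAP cultures that were all at 0, so its fitted fold is not given.

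The last comparison set SCs of sorted cultures (donors 5, 6 and 10) against SCs of unsorted cultures (donors 1, 2 and 9) at P2. FGFR1 and FGF10 were lower in SCs of the sorted cultures, 2 of 8 tested members, against 7.51% of 11378 genes called and 4.46% called lower. FGFR1 was at 19.6, 43.6 and 38.6 against values between 93.9 and 115, with a log2 fold change of -1.72 (SE 0.29, adjusted p = 0.0185). FGF10 was at 32.9, 55.5 and 48.6 against 135, 86.1 and 134, with -1.49 (SE 0.25, adjusted p = 0.0173). Neither gene overlapped between the groups, as for 40.1% of genes.

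Both calls were lost on leaving out donor 1 (adjusted p = 0.0756 for FGFR1 and 0.0815 for FGF10) or donor 9 (0.0774 for each). The log2 fold changes changed little on leaving out any 1 of the 6 donors, from -1.94 to -1.45 for FGFR1 and from -1.66 to -1.30 for FGF10. The FAP marker list summed to between 4010 and 8460 in the SCs of unsorted cultures and between 2200 and 5320 in those of sorted cultures. Its part in the FGFR1 and FGF10 values was not tested. FAPs of the same unsorted donors held FGFR1 at 12.8, 14 and 12.5 and FGF10 at 44.8, 57.9 and 46.0, below the SCs of the same donor in each case. SCs in the FAP cultures, with 95, 50 and 18 cells, were at 66.2, 112 and 141 for FGFR1 and at 80.8, 119 and 179 for FGF10, above every SC sum of the sorted SC cultures. TMM scaling alone lowered the log2 fold changes of this comparison by 0.11. The coat and the donor animals differed with the sort.

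The other members were not called between sorted and unsorted cultures. SPRY1 was at 26.9, 32.4 and 25.1 against 50.6, 39.5 and 39.8 (-0.74, SE 0.15, adjusted p = 0.0237). SPRY2 was at 9.22, 12.9 and 21.6 against 25.1, 33.0 and 26.5 (-1.06, SE 0.32, adjusted p = 0.0661), and FGFR4 had 1.25 (SE 0.50, adjusted p = 0.143). MET (0.34, adjusted p = 0.327), FGF2 (-0.20, adjusted p = 0.832) and FGF7 (0.72, adjusted p = 0.552) had overlapping groups. On the pathway list 1 of 49 tested genes was higher and 7 were lower, where 7.51% of all genes were called and 4.46% called lower, among them 4 of the 10 tested ERK target genes. The largest were FGF18 (3.32, adjusted p = 0.0152), MST1R (-2.52, adjusted p = 0.0363), SULF1 (-2.31, adjusted p = 0.0325) and FOS (-1.74, adjusted p = 0.0299).

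The genes whose pooled levels ran most like those of the receptors were listed over 20 pools of cell type and timepoint, among 11606 genes, as a description. For FGFR4 they included JSRP1 (Pearson r 0.953), FRAS1 (0.952), CHRNA1 (0.951) and CBLN4 (0.949). For MET they were ANKRD2 (0.898), a gene with no symbol, SHF (0.866), NEDD4L (0.861) and COBL (0.861). For FGFR1 the values were lower, with CYB561 (0.801), ARSG (0.792), PCDHGC3 (0.789), DST (0.777) and GATD1 (0.765). MET and FGFR4 had r = 0.73 with each other, while MET and FGFR1 had 0.52 and FGFR1 and FGFR4 0.37. Pools of the same timepoint share a library, and pools are not independent.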

How the data were processed

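The authors deposited, for 5 Chromium 3′ libraries, a matrix of raw UMI counts with 1 row per gene and 1 column per barcode, made with Cell Ranger 6.0.1 on build ARS-UCD1.2 per the labels. The authors' combined cell table gave quality-passed cells, donor and cell type, and its percent of mitochondrial counts per cell was read as deposited. Donors were assigned by the authors from genotypes with demuxlet, the cell table marks its cells as singlets, and no doublet caller was run here. The separate cell tables per library and a combined table of all cells were not used.

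Counts were summed per library, donor and cell type (at least 10 cells; 39 SC and 45 FAP sums) and fitted over all genes with the edgeR 4.0.16 quasi-likelihood F test in R 4.3.3 (TMM, filterByExpr, robust), with Benjamini-Hochberg adjustment. Called genes had an adjusted p under 0.05 and an absolute log2 fold change over 1. Comparisons were made pairwise, and DESeq2 1.42.0, no filter, raw totals, thinning, at least 30 cells, leaving out donors and a donor block were alternatives. Levels and counting intervals (95%, exact, conditional on the summed UMIs) were computed with Python 3.11.15, pandas 2.3.3, NumPy 2.4.6 and SciPy 1.17.1. SC minus FAP differences used a pseudocount of 1.

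The culture type of a donor came from the series' design text. The same donor number marks the same animal, which pairs the samples across timepoints; deviations of paired SC sums correlated by between -0.14 and 0.19 from muscle to P0, between 0.03 and 0.39 from P0 to P2 and between 0.03 and 0.6 from P2 to P5. The label of Timepoint 2 names SCs, FAPs and unsorted cells, while the protocol has cells unsorted until after 72 h, and that library was treated as unsorted.

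The members and gene lists were chosen with earlier results of these data known. The text names the 9 members throughout, the 4 largest called genes of the pathway list per comparison, and the 5 genes most like each receptor over pools of at least 50 cells, among genes with at least 10 CPM in 1 pool; 1 gene of the FGFR4 list is not reported here. Donor age and sex were not analysed here.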

Additional observations from a re-analysis of the deposited data

Results flagged for a closer look

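In 9 of 63 groups of SC or FAP sums tested 1 donor lay apart from the others by Dixon's criterion. Its critical values are for normally distributed values, which sparse counts are not, so no rate by chance is given. Of these 9 groups, 7 rested on at most 6 UMIs. HGF stood apart in muscle SCs of donor 3 (10.2 CPM, 1 UMI), P5 SCs of donor 2 (1.3, 1 UMI) and P2 FAPs of donor 5 (3.2, 2 UMIs). MET in muscle FAPs of donor 5 (0.441), and FGFR4 in muscle FAPs of donor 7 (1.42), were 1 UMI each. FGFR4 in P2 FAPs of donor 5 (4.8, next 2.67) was 3 UMIs, and FGF10 in muscle SCs of donor 3 (61.4, next 24.5) was 6 UMIs. FGF7 in muscle SCs of donor 5 was at 39.7 on 13 UMIs, with the next donor at 10.2. FGF7 in P2 SCs of donor 10 was at 158 on 5020 UMIs, with the next donor at 85.2.

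The interaction term of the change from muscle to P0 was called for 6 members, by the edgeR quasi-likelihood fit without a donor block. The terms were 3.39 for SPRY2 (adjusted p = 2.09e-14), 1.96 for FGFR1 (7.66e-10), 1.11 for SPRY1 (8.68e-05), 1.35 for FGF10 (0.0309) and -1.18 for FGF2 (0.0365). That of FGFR4 was -4.28, its call set aside above. The limits given above for cell types from clusters and for FAP markers hold here too. Those of FGF2 and FGF10 lay close to the threshold. SC and FAP sums share donors, and with donor as a block the FGF2 term was -0.90 and lost its call (adjusted p = 0.0668). With no filter FGF10 (0.0615) and FGF2 (0.0568) lost theirs, and on thinning 2 members, SPRY1 and SPRY2, were called, of 3 that passed the filter.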

How the results depend on the processing

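Of 212 alternative values of called members, 190 kept direction and call, 21 lost the call and 1 reversed. Counts here include the calls set aside above. The number of members called went from 3 to 5 with no filter and to 1 on thinning in SCs from muscle to P0, and from 6 to 2 on thinning for the interaction. From P2 to P5 it went from 1 to 0 with no filter, on thinning and in donors of SC cultures, and in FAPs from P0 to P2 from 3 to 0 on thinning and in donors of SC cultures. Thinning left fewer genes tested, members included (1551 of 5221 for SCs from muscle to P0), and for the other changes the cause was not tested. DESeq2 called 2 members in place of 1 between cultures at P8 and 4 in place of 2 between sorted and unsorted cultures. Leaving out 1 donor at a time gave 3 to 4 called members between cultures at P2 and at P5, 0 to 1 at P8, and 0 to 3 between sorted and unsorted cultures. With at least 30 cells, 5 members in place of 3 were higher in SCs of every donor at P8, where 2 donors were left. With donor as a block 4 members were called in SCs from muscle to P0, and the pairing (FGF2 from P2 to P5 at 1.35, adjusted p = 0.0214) changed no call beside those of FGF10 and FGF2 given above. Log2 values that changed sign were, in SCs from P0 to P2, FGFR1 -0.07 and SPRY1 -0.16 (donors of SC cultures) and FGF2 -0.01 (unsorted); from P2 to P5, SPRY1 0.00 (no filter), FGFR1 0.16 (thinned) and FGFR4 0.71 (unsorted); in FAPs from P0 to P2, FGFR1 -0.08 (block), -0.02 (SC cultures) and -0.52 (unsorted), FGF2 0.76, FGF7 0.65 and SPRY1 -1.50 (SC cultures) and SPRY1 -0.04 (unsorted); between cultures, leaving out 1 donor at a time, FGF2 (-0.20, without donor 6, to 0.54) and FGF7 (-0.39, without donor 10, to 1.07) at P2, and SPRY1 at P5 (-0.25, without donor 6, to 0.28, with -0.04 without donor 8) and at P8 (-0.06, without donor 6, to 0.30); between sorted and unsorted cultures, FGF2 (-0.54 to 0.20, the latter without donor 5) and FGF7 (-0.33, without donor 10, to 1.19); and the SC minus FAP difference of FGF2 at P5, 0.32 with at least 30 cells against -0.27. The fits and pooled ratios by culture type and the SC minus FAP means without 1 donor were chosen after seeing the data, and those with under 2 sums in a group were not run. Muscle SC sums held as few as 97693 UMIs, and HGF, MET, FGF7 and FGF10 did not pass the filter there.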
